A study of Mus musculus with 6 samples.

Results

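The expression of 10 genes of interstitial collagens and fibroblast matrix proteins (Col1a1, Col1a2, Col3a1, Fn1, Efemp1, Fbln1, Dcn, Lum, Postn and Mgp) was examined in glomeruli of aged dendrin knockout mice. All probe sets that the array annotation assigns to exactly 1 of these genes were taken, which gave 18 of the 45101 probe sets on the array, for 10 of its 18194 genes. Knockout glomeruli came from 3 mice without dendrin and control glomeruli from 3 of their littermates, all 13 months old and labelled with the genetic background 129S6SvEv/C57BL6, and 1 Affymetrix array was run for every mouse. In the knockout mice, the whole coding sequence of dendrin was replaced in every cell by a cassette with eGFP and a neomycin resistance gene, so that the deletion is not limited to podocytes. The mice came from matings of heterozygous mice of a line that, by the study's methods, had been crossed back onto C57BL/6. The values are GCRMA values, which are background-corrected and normalized signals of a probe set on the log2 scale.

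A scarred glomerulus is filled with extracellular matrix that a healthy one lacks. Type I and type III collagens, the rope-like collagens of connective tissue, are made mainly by fibroblasts and activated mesenchymal cells. Decorin, lumican and periostin organize or decorate their fibrils, while fibulin-3, the product of Efemp1, belongs to elastic fibres and basement membranes. A rise of such matrix genes in glomerular RNA is often read as a sign of scarring. The same RNA can also come from arteriolar walls, Bowman's capsule or interstitial tissue that stays with the glomeruli during isolation.

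The signal of the dendrin gene matched the labels. Ddn had GCRMA values of 3.80, 3.81 and 3.80 in knockout mice, against 12.22, 12.81 and 12.31 in control mice. The signal was at least 349-fold lower in knockout glomeruli when log2 4, under which a signal is called dim here, is taken as the bound (limma, adjusted p = 0.0197). With 1 array left out, this adjusted p stayed under 0.05 only without control 2 and lay between 0.077 and 0.19 without any other array, while the difference stayed between -8.76 and -8.46.

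Of the 10 matrix genes, only Efemp1 passed the criterion of a fold over 1.5 with an unadjusted p under 0.05, and it was higher in knockout glomeruli. No member probe set passed after adjustment over all probe sets. The genes of type I and type III collagen were not higher by the criterion. The promoters of Efemp1 and of Col1a2, a chain of type I collagen, are shown because these were the member genes with an unadjusted p under 0.05, in opposite directions, and because their starts differ in sequence. Both come from RefSeq on the build GRCm38.p6 and run from 250 bases before the start of the gene to 50 bases after it. Capitals mark the CCAAT box (CCAAT), the TATA box (TATAAA) and the GC box (GGGCGG), searched on both strands, and no match overlapped another.
Efemp1, chr11:28852955-28853254, plus strand: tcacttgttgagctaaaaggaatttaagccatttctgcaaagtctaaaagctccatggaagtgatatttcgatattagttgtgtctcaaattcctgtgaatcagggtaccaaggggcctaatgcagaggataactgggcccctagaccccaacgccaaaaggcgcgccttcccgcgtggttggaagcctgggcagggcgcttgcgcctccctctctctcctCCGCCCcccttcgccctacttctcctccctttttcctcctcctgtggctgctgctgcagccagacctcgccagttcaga
Col1a2, chr6:4505368-4505667, plus strand: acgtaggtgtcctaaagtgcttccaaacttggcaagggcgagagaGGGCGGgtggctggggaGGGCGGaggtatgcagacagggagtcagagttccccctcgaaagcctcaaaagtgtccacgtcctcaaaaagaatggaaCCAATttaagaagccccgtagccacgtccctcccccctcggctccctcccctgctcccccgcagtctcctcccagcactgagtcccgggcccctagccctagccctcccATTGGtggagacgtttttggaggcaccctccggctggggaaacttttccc
The Efemp1 window held 1 GC box and neither of the other motifs. The Col1a2 window held 2 GC boxes and 2 CCAAT boxes. Of the 32851 promoters in the table, 35.7% held a GC box, 37.4% a CCAAT box and 13.6% a TATA box, so that these matches are common and describe the sequence only. Promoters of 5 of the 10 genes were in the table. The arrays measured RNA and nothing at the promoters.

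Efemp1 encodes fibulin-3, a secreted glycoprotein of elastic fibres and basement membranes. Its single probe set had GCRMA values of 10.08, 9.92 and 9.36 in knockout mice, against 9.07, 9.27 and 8.74 in control mice. All 3 knockout values lay above all 3 control values, although the gap between the lowest knockout mouse and the highest control mouse was only 0.093 on the log2 scale. The mean was 9.79 ± 0.38 in knockout and 9.03 ± 0.26 in control glomeruli (SD, n = 3 mice each). The difference was 0.76 (SE 0.26, 95% interval 0.066 to 1.46), which is 1.70-fold, with an unadjusted p of 0.0380 and an adjusted p of 1 from limma. With 3 mice against 3, the exact permutation test gave p = 0.1, the smallest value it allows (two-sided). Over the whole array, 0.0843% of the probe sets passed the criterion in the higher direction and 0.0953% in the lower direction, against 1 and 0 of the 18 member probe sets.

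The Efemp1 call did not hold in most fits with 1 mouse left out. It remained without knockout 3, the knockout mouse with the lowest value, and was lost when any of the other 5 mice was left out, although the difference stayed between 0.61 and 0.98 in all 6 cases. Control 2 was the array least like the others, with correlations of 0.973 to 0.985 to the other arrays, high signals of tubule genes and low signals of leukocyte genes. Without control 2, the Efemp1 difference was 0.88 with an unadjusted p of 0.0513.

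**Figure D1:**
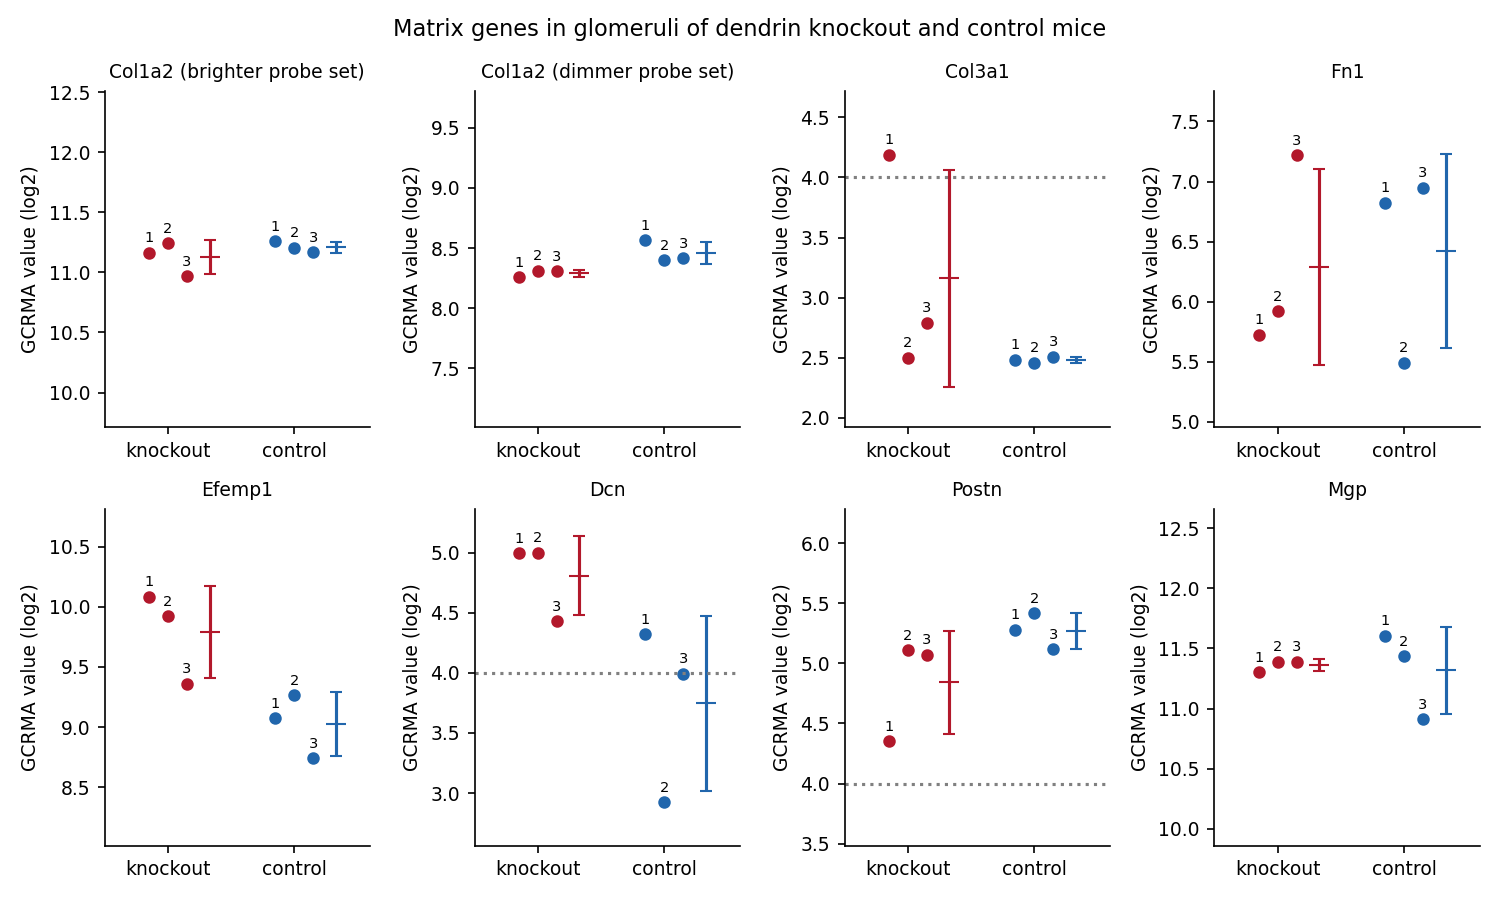
GCRMA values (log2) of the 8 member probe sets that varied by more than 0.1, with knockout mice in red on the left and control mice in blue on the right of each panel. Points are single mice labelled by replicate number, bars are mean ± SD of 3 mice, every panel spans the same number of log2 units, and the dotted line marks log2 4. The groups are apart in Efemp1, Dcn, Postn and the dimmer probe set of Col1a2, and Fn1 varies widely within both groups.

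Dcn encodes decorin, a small proteoglycan that coats collagen fibrils and binds TGF-beta. Its brighter probe set had values of 4.99, 5.0 and 4.43 in knockout mice, against 4.32, 2.93 and 3.99 in control mice. The groups did not overlap, with a gap of 0.11, but the signal reached log2 4 in all knockout mice and in only 1 control mouse. The mean was 4.81 ± 0.33 in knockout and 3.75 ± 0.73 in control glomeruli (SD, n = 3 each). This difference of 1.06 (SE 0.44, 95% interval -0.14 to 2.26) missed the criterion with an unadjusted p of 0.0707 from limma. With SAM, the test of the study's methods, the unadjusted p was 0.0498, and Dcn and Efemp1 then both passed, while 0.0998% of all probe sets passed in that direction. Without control 1, the difference was 1.35 and passed the criterion with an unadjusted p of 0.0496, and without control 2, the array with the lowest Dcn value, it was 0.65. When 16 was added to all unlogged signals, which damps dim ones, it was 0.56. The other probe set of Dcn stood at 2.20, the lowest value of the table, on all 6 arrays.

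The fibrillar collagens did not share a direction. Col1a2, the alpha 2 chain of type I collagen, had 2 probe sets well above the dim level. The brighter gave 11.16, 11.24 and 10.97 in knockout mice, against 11.26, 11.20 and 11.17 in control mice. These groups overlapped, and the difference was -0.084 (SE 0.083), with a 95% interval of -0.31 to 0.14 that ends below a rise of 1.5-fold. The dimmer gave 8.26, 8.31 and 8.31 in knockout mice, against 8.56, 8.40 and 8.41 in control mice. Here the groups were apart, lower in knockout mice, with a difference of -0.17 (SE 0.053, 95% interval -0.31 to -0.024) with an unadjusted p of 0.0310 and an adjusted p of 1, a change far under 1.5-fold. The remaining Col1a2 probe set stood at the lowest value on all arrays.

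Col1a1 encodes the alpha 1 chain, which pairs with the product of Col1a2 in type I collagen. Both of its probe sets stood at the lowest value of 2.20 on all 6 arrays, so that nothing can be said of its level or its difference. Col3a1 encodes type III collagen, the early collagen of scars and vessel walls. Its varying probe set had values of 4.19, 2.50 and 2.79 in knockout mice, against 2.48, 2.46 and 2.51 in control mice. Only knockout 1 reached log2 4, the other 5 arrays were dim, and the groups overlapped. The difference was 0.68 (SE 0.50, 95% interval -0.68 to 2.03) with an unadjusted p of 0.244 from limma. Without knockout 1, this difference was 0.16. The other Col3a1 probe set stood at the lowest value.

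Fn1 encodes fibronectin, a glycoprotein of plasma and of provisional matrix. Its varying probe set had values of 5.73, 5.92 and 7.22 in knockout mice, against 6.82, 5.49 and 6.95 in control mice. High and low values occurred in both groups, and the spread within a group (SD 0.81 in knockout and 0.81 in control mice) was larger than the difference of -0.13 (SE 0.64, 95% interval -1.85 to 1.59). The sign of this difference turned when knockout 1, knockout 2, control 1 or control 3 was left out, and without control 2 the difference was -0.60. The second Fn1 probe set stood at the lowest value on all arrays.

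Postn encodes periostin, a matricellular protein induced in injured kidneys. It had values of 4.35, 5.11 and 5.07 in knockout mice, against 5.28, 5.42 and 5.12 in control mice. The groups were apart by a gap of only 0.0052, in the direction of lower values in knockout mice. The difference of -0.43 (SE 0.25, 95% interval -1.11 to 0.25) did not pass, with an unadjusted p of 0.160, and it was -0.18 without knockout 1.

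Mgp encodes matrix Gla protein, an inhibitor of calcification made by vascular smooth muscle and cartilage cells. It was bright in all mice, with values of 11.30, 11.39 and 11.39 in knockout mice, against 11.61, 11.43 and 10.91 in control mice. The knockout values lay within the range of the control values, and the difference was 0.042 (SE 0.20, 95% interval -0.51 to 0.59). Its sign turned without control 3, where the difference was -0.16.

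Lum, which encodes the fibril proteoglycan lumican, stood at the lowest value on all arrays with its single probe set. Fbln1, the gene of fibulin-1, had 3 probe sets between 2.20 and 2.24 on all arrays. Together, 8 of the 18 member probe sets stood at the lowest value on every array, as did 30.0% of all probe sets. A total of 7 member probe sets, for 6 of the 10 genes, had a mean of at least log2 4. A probe set that stays at the lowest value does not show that its gene is silent, since a probe set that binds poorly would give the same value.

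**Figure D2:**
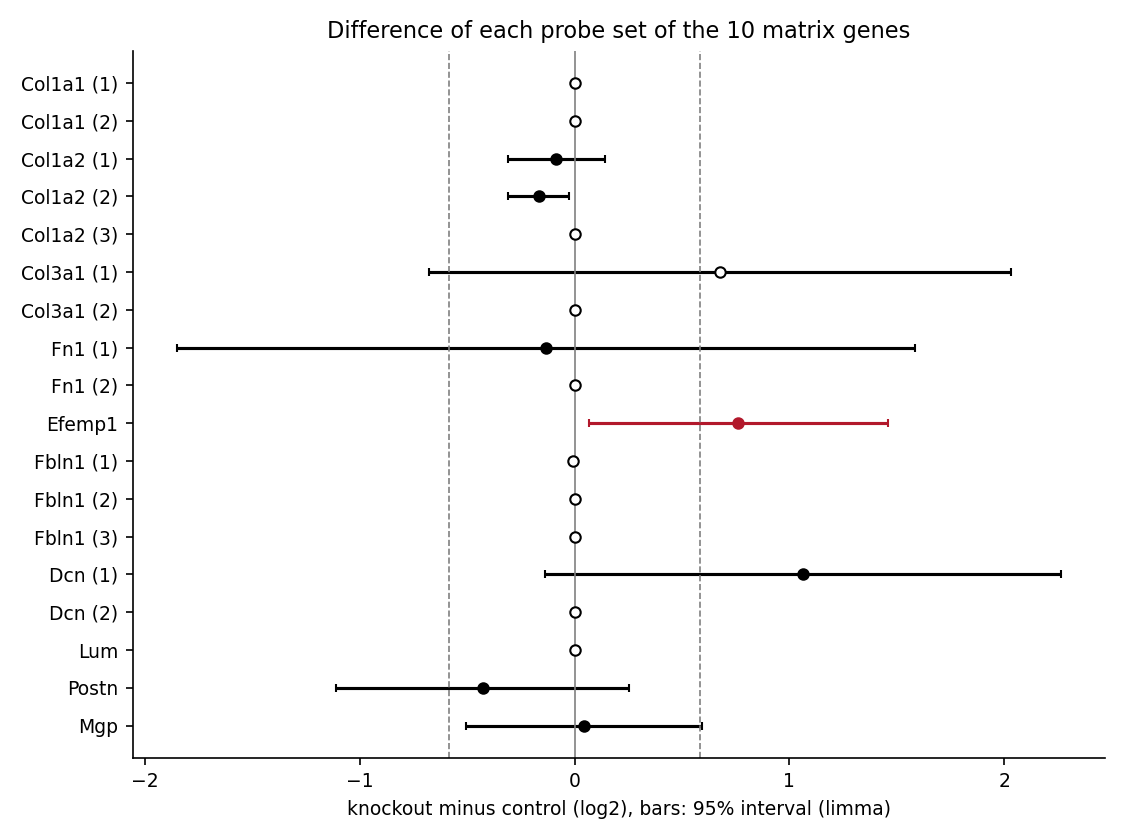
Difference between knockout and control glomeruli (knockout minus control, log2, horizontal axis) for each of the 18 member probe sets, with the 95% interval from limma as bars. Open points had a mean under log2 4, those without bars did not vary visibly, numbers in brackets tell apart probe sets of 1 gene, dashed lines mark 1.5-fold in either direction, and only Efemp1 (red) passed the criterion.

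Counted over all 18 member probe sets, 2 had an unadjusted p under 0.05 from limma, Efemp1 (higher) and Col1a2 (lower), and the same held for 3.63% of all probe sets. None had an adjusted p under 0.05, while 0.00222% of all probe sets, which is Ddn alone, did. In 4 member probe sets the groups did not overlap, higher in knockout mice for Efemp1 and Dcn and lower for Col1a2 and Postn, and over the array 6.32% of the probe sets had groups that did not overlap. The median difference was 0 over the members and 0 over all probe sets. These zeros reflect flat signals, since 9 member probe sets and 35.8% of all probe sets had the same value on all arrays. Among probe sets with a mean of at least log2 4, the median was -0.084 over the 7 of the members and 0.015 over the array. These groups of 3 mice are small, and p values describe the spread between these mice.

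The members did not all vary together over the 6 arrays. Their likeness is described by Pearson's r without a test, because tissue composition and the shared normalization can make genes vary together. Efemp1 and Dcn had an r of 0.62, Efemp1 and Fn1 of -0.60, and Efemp1 and Col1a2 of 0.045. Col3a1 had an r of 0.65 with Efemp1 and 0.50 with Dcn. Postn ran against Col3a1 with an r of -0.96, Dcn with -0.67 and Efemp1 with -0.65. Knockout 1 was the mouse with the highest Col3a1 and the lowest Postn value. Among 1211 probe sets with a mean of at least log2 4 and a range above 1, the 5 most like the mean of Col1a1, Col1a2 and Col3a1 were those of Ccdc68 (r 0.97), Sost (0.96), Nr4a3 (0.90), Tnnt2 (0.85) and Knstrn (0.85). This mean varied almost only through the dim Col3a1 probe set, since Col1a1 did not vary and Col1a2 varied little (SD 0.11 over the 6 arrays), so that the likeness describes the high value of knockout 1 and not type I collagen. All 5 genes were highest in knockout 1, for example Sost, the gene of the Wnt antagonist sclerostin, with values of 7.29, 6.17 and 6.28 in knockout mice, against 5.87, 5.81 and 5.97 in control mice.

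Likeness to single members was looked at after their values had been seen. The probe sets most like Efemp1 were those of Adm, the gene of the vasodilator adrenomedullin (r 0.97), Pear1 (0.97) and Ackr3, a chemokine scavenger receptor (0.95). Adm had values of 10.28, 9.99 and 9.51 in knockout mice, against 9.46, 9.54 and 9.25 in control mice. Those most like Fn1 were Nabp1 (0.97), Ifitm6 (0.97) and Naip5 (0.96), followed by Chil3 (0.95), a gene of macrophages and neutrophils. Chil3 had values of 4.59, 4.59 and 6.93 in knockout mice, against 7.19, 4.47 and 7.46 in control mice, high in the same 3 mice in which Fn1 was high. The probe set most like Dcn was that of the neurotrophin receptor Ntrk2 (r 0.996).

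Marker genes of other cell types were set beside the members. In whole glomeruli, fewer cells of a type and less RNA per cell cannot be told apart. Of the 10 leukocyte genes, headed by Ptprc, C1qa and C1qb, 10 had a mean of at least log2 4 and 0 passed the criterion. Their summed unlogged signal ranged between 24007 and 41950 in knockout mice and between 7947 and 40855 in control mice, lowest in control 2. Their median shift from the mean of the 6 arrays was 0.31, -0.14 and 0.74 in knockout mice, against 0.32, -1.94 and 0.74 in control mice, and its r with Fn1 was 0.76. The part of these cells in the Fn1 values was not tested.

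Of the 8 smooth muscle genes, headed by Acta2, Myh11 and Tagln, 5 had a mean of at least log2 4. Of these, 1 passed the criterion, higher in knockout mice, where 0.0843% of all probe sets passed in that direction. This was Tagln, which encodes the actin-binding protein transgelin. Tagln had values of 10.52, 10.11 and 10.14 in knockout mice, against 9.38, 10.01 and 9.35 in control mice, a difference of 0.68 (SE 0.24). The Tagln difference was 0.89 and still passed without control 2, and it was 0.54 to 0.75 and no longer passed when any other mouse was left out. Cnn1 and Actg2 stood at the lowest value on all arrays. The 5 genes with a mean of at least log2 4 were all higher by sign in knockout mice. In 2 of them, Tagln and Smtn, the groups did not overlap, beside 6.32% of all probe sets, a share that includes probe sets that did not vary. The summed signal of the list was 11738 to 14141 in knockout mice and 10610 to 11144 in control mice, ranges that did not overlap. Its largest part was Myl9, with a mean of 12.83, in which the groups overlapped with a difference of 0.14 (SE 0.15). The median shift of the list had an r of 0.82 with Efemp1. The shifts given here use the genes with a mean of at least log2 4. For parietal epithelium these were 2 of the 5 genes measured, Cldn1 and Cd24a, and their shift had an r of 0.81 with Efemp1 and 0.91 with Dcn. The list did not move one way, with 1 gene higher and 3 lower by sign, of which Krt8 and Krt18 were dim. Its summed signal was 22326 to 25545 in knockout mice and 25271 to 27519 in control mice. This sum follows almost only Cd24a, which had a mean of 14.60, against 7.03 for Cldn1. Cldn1, a tight junction gene of Bowman's capsule, had values of 7.86, 7.27 and 7.08 in knockout mice, against 6.90, 6.34 and 6.75 in control mice, and Cd24a differed by -0.12.

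The 8 glomerular endothelium genes, headed by Pecam1, Kdr and Ehd3, were all lower by sign in knockout mice, with a median difference of -0.13. None passed the criterion, and 4 had an unadjusted p under 0.05 from limma, beside 3.63% of all probe sets. In 4 the groups did not overlap, beside 6.32% of all probe sets. Their summed signal was 58209 to 62397 in knockout mice and 62409 to 66610 in control mice, and the shift had an r of -0.70 with Efemp1. The 6 podocyte genes measured all had a mean of at least log2 4 and were all higher by sign in knockout mice, with a median difference of 0.15 and none past the criterion. Their summed signal was 94800 to 101386 in knockout mice and 86838 to 101791 in control mice, and the shift had an r of 0.64 with Efemp1. The 10 genes of loop, distal tubule and collecting duct had a summed signal of 3324 to 4288 in knockout mice and 3220 to 15426 in control mice, highest in control 2. Their shift had an r of -0.86 with Dcn, which was lowest in control 2. The shift was 2.10 in control 2 and between -0.50 and -0.34 on every other array, so that this r describes mainly 1 array. The part of smooth muscle, capsule, tubule, endothelial or podocyte cells in the Efemp1 and Dcn values was not tested.

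**Figure D3:**
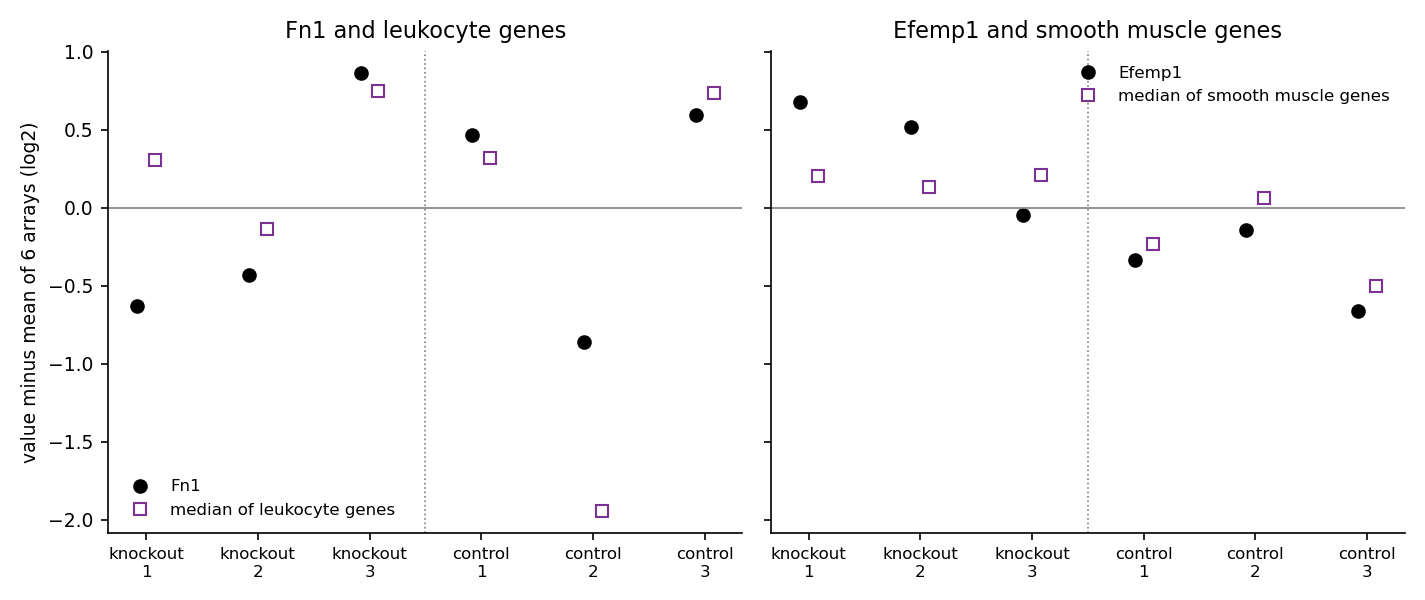
Fn1 with the leukocyte genes (left) and Efemp1 with the smooth muscle genes (right) on each of the 6 arrays, as the distance from the mean of the 6 arrays (log2, vertical axis). Filled circles are the member and open squares the median of the marker list, with knockout mice left of control mice. The leukocyte genes were lowest in control 2 with a shift of -1.94, where Fn1 was lowest too, and Efemp1 was highest in knockout 1.

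Several genes of the fibroblast list gave no measurable signal, while others were bright. Of 16 genes on the fibroblast list, 8 had a mean of at least log2 4, and Thy1, Dpt, Clec3b, Fap, Scara5, Mfap5 and Abca8a stood at or next to the lowest value on all arrays. The summed signal of the list was 39055 to 39893 in knockout mice and 39196 to 40341 in control mice. The bright genes included Pi16, Gsn and S100a4, with means over the 6 arrays of 12.46, 13.70 and 10.81. The list also holds genes that mesangial, endothelial or blood cells use, such as Pdgfrb and Cd34. A total of 2 genes passed the criterion, both lower in knockout mice, where 0.0953% of all probe sets passed in that direction. Pdgfra, a receptor for platelet-derived growth factor, had values of 10.87, 11.27 and 11.03 in knockout mice, against 11.82, 11.73 and 11.38 in control mice, a difference of -0.59 (SE 0.17). Meox1, a homeobox gene, had values of 5.62, 5.23 and 5.27 in knockout mice, against 6.09, 5.84 and 6.75 in control mice, a difference of -0.85 (SE 0.29). Both missed an adjusted p under 0.05. The Pdgfra call was lost without knockout 1, knockout 3, control 1 or control 2, where the difference lay between -0.57 and -0.49. The Meox1 call was lost without knockout 1, knockout 2, knockout 3 or control 1, where the difference lay between -0.98 and -0.78.

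No gene of a wider set of interstitial matrix genes passed the criterion. Of 79 genes in 6 lists, 73 were measured and 49 had a mean of at least log2 4. Of the 73, 3 had an unadjusted p under 0.05 from limma, beside 3.63% of all probe sets, and none had an adjusted p under 0.05. By the sign of the difference, 36 were higher, 24 were lower and 13 lay within 0.005 of 0, and the median difference over the 73 genes was 1.45e-04. This median includes 24 dim genes, and over the 49 with a mean of at least log2 4 it was 0.046.

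Among 13 other fibrillar and network collagens the median difference was 0.0083, and 0.015 among the 8 with a mean of at least log2 4. Col15a1, a collagen next to basement membranes, had the largest negative difference of -0.47 (SE 0.32) and Col8a1, a network collagen of vessels and glomeruli, the largest positive one of 0.33 (SE 0.33), both with overlapping groups. Among 9 proteoglycan genes, 2 had a mean of at least log2 4. Bgn, which encodes biglycan, a close relative of decorin, was bright with values of 13.22, 13.28 and 13.20 in knockout mice, against 13.19, 13.13 and 13.16 in control mice. Its groups did not overlap, and the difference of 0.072 (SE 0.029) was a change of 1.05-fold.

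The 11 elastic and microfibrillar genes measured had a median difference of -0.038, with Eln, the gene of elastin, at 0.27 (SE 0.12) and Emilin1 at -0.23 (SE 0.14). Ltbp1, which holds latent TGF-beta in the matrix, had an unadjusted p under 0.05 with a difference of only -0.13 (SE 0.048). The 12 matricellular genes measured had a median of -0.015. Of these, Cyr61, also called Ccn1, differed by -0.58 (SE 0.53) and Tnc, which encodes tenascin-C, by 0.36 (SE 0.47), and the groups overlapped in both. Ccdc80 had an unadjusted p under 0.05 with a difference of -0.14 (SE 0.047).

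The 17 collagen assembly enzymes measured had a median difference of 0.084, with 12 higher and 4 lower by sign. P4ha2, a catalytic subunit of the prolyl hydroxylase that stabilizes the collagen helix, had values of 10.09, 10.24 and 10.04 in knockout mice, against 9.67, 9.79 and 9.39 in control mice. The groups were apart by 0.25, and the difference of 0.51 (SE 0.13, unadjusted p of 0.0149, adjusted p of 1) was 1.42-fold, short of the criterion. P4ha2 passed the criterion when control 2 was left out, with a difference of 0.59. Lox, the gene of the collagen cross-linking enzyme lysyl oxidase, differed by 0.48 (SE 0.74) with values of 5.46, 4.24 and 6.76 in knockout mice, against 4.99, 4.57 and 5.46 in control mice. The groups overlapped for Lox.

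Among 11 proteases and inhibitors measured, the median difference was 0.0093, and 0.070 among the 8 with a mean of at least log2 4. Mmp3, the gene of stromelysin-1, had the largest difference of the wider set, 0.84 (SE 0.49), with values of 5.40, 6.45 and 4.93 in knockout mice, against 4.30, 4.84 and 5.13 in control mice. These groups overlapped, and the unadjusted p was 0.158. Mmp2, which encodes a gelatinase, differed by 0.32 (SE 0.21), also with overlapping groups.

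**Figure D4:**
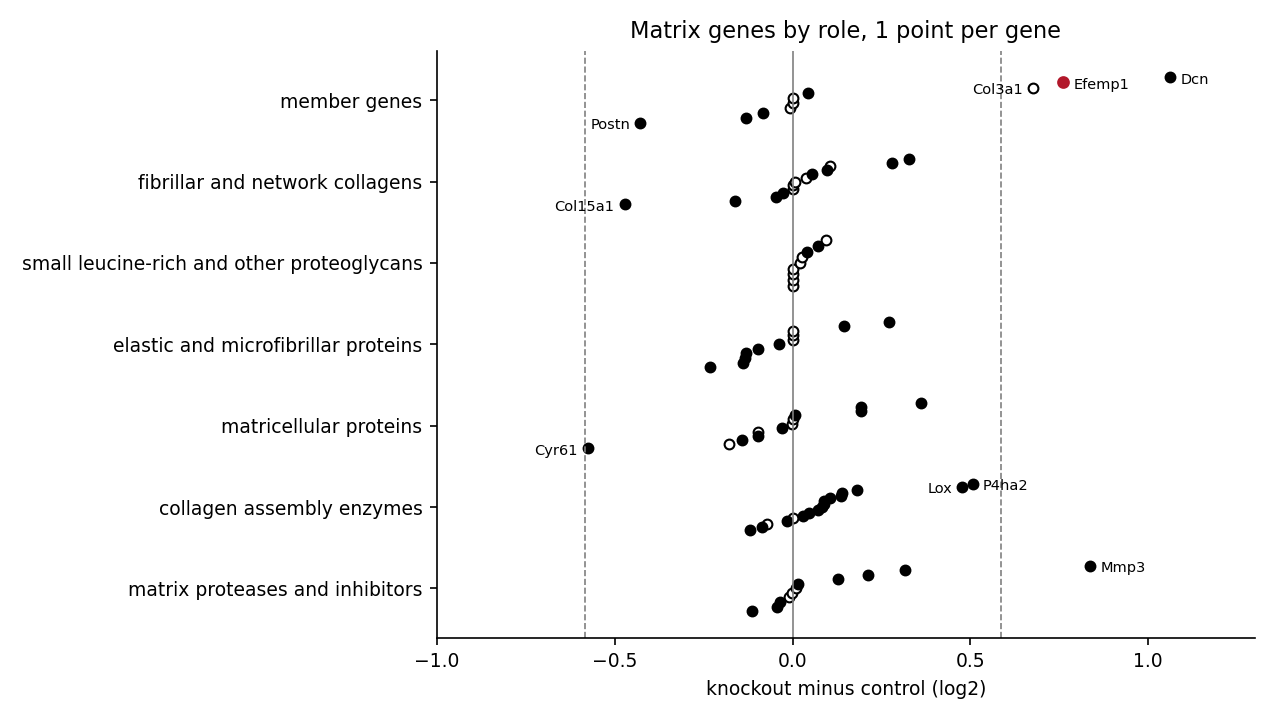
Difference between knockout and control glomeruli (knockout minus control, log2, horizontal axis) for the 10 member genes and 6 lists of other matrix genes, with 1 point per gene at the probe set of highest mean. Open points had a mean under log2 4, dashed lines mark 1.5-fold, and genes beyond 0.4 in either direction are named. Efemp1 (red) was the only one past the criterion.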

How the data were processed

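Glomerular RNA of 3 dendrin knockout and 3 littermate control mice was profiled on Affymetrix whole-genome mouse arrays, 1 per mouse. The authors normalized the intensities with GCRMA (version 2.30.0, per the labels), which subtracts a sequence-dependent background, equalizes the arrays and summarizes probes, and deposited log2 values. Dim signals are compressed toward a shared lowest value by this step. Raw intensities were not used here.

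Groups follow the labels. The genotypes were compared in limma (version 3.58.1, R 4.3.3) by lmFit and eBayes, two-sided, on all 45101 probe sets without filter, with Benjamini-Hochberg adjustment over all of them. The criterion of a fold over 1.5 and an unadjusted p under 0.05 follows the study's methods, which used SAM. SAM was written out in R as an alternative. GEO's annotation of the array names 1 gene for 34958 probe sets, several for 932 and none for 9211, and only the first kind stands for a gene. Where a gene had several probe sets, the one of highest mean stands for it in gene lists. The fit was tested on simulated data.

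Member genes and gene lists were chosen with earlier results of these data known. Named genes are all members, the dendrin gene, per matrix list the 2 genes of largest difference with a mean of at least log2 4 and any gene past the criterion, the 5 genes most correlated with the collagens, and first-listed markers. Chil3, Adm and other genes like single members were named after their values were seen. So were fibroblast genes at the lowest value, Pi16, Gsn, S100a4, Pdgfra, Meox1, Cnn1, Actg2, Myl9, Krt8, Krt18 and genes with an unadjusted p under 0.05. Alternatives were SAM, an intensity trend with robust prior, filters on dim or flat probe sets, median centring, an offset of 16, weighted arrays, a replicate block, other probe sets of a gene, a fold over 2 and leaving out each array. Array data hold no counts, so that the number of arrays limits the precision.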

Additional observations from a re-analysis of the deposited data

How the results depend on the processing

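The count of member probe sets past the criterion was 1 and became 2 with SAM, with only probe sets of a mean of at least log2 4 and with only probe sets of a range above 0.1, where Dcn joined Efemp1, with fewer probe sets tested under the filters. It became 0 with a fold over 2. Leaving out 1 array at a time gave 0 to 1: Efemp1 was lost without knockout 1, knockout 2, control 1, control 2 or control 3, and Dcn passed without control 1. The median difference of the members ranged from 0 to 0.036 and the count of other matrix genes past the criterion from 0 to 1 in these 6 fits, the 1 being P4ha2 without control 2. No median was computed under the filters on dim or flat probe sets, which remove members. With the replicate number as a block (replicate block), the member count stayed at 1, Efemp1 with an unadjusted p of 0.0158, no member or other matrix gene changed its side of the criterion, and the adjusted p of Ddn was 0.46. The labels do not say that the numbers pair the mice, and the main fit did not use them. Deviations of same-numbered mice from their group means correlated at 0.095, 0.35 and 0.25, and 6 of 6 arrays correlated best with their own number. What the numbers stand for was not tested. The difference of Ddn lay between -8.76 and -7.54 under all alternatives and always passed the criterion, while its adjusted p missed 0.05 under the replicate block and in 5 of the 6 fits with 1 array left out (adjusted p of 0.077 to 0.19). Signals under log2 4 limit what can be said of Col1a1, Col3a1, Fbln1, Lum and the control values of Dcn.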

Other observations

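Partner chains of 1 collagen molecule gave unequal signals on this array. Type VI collagen is built from 3 chains, and Col6a3 varied between 8.20 and 8.95 on the 6 arrays, while Col6a1 stayed at 2.34 to 2.35 and Col6a2 at 2.20. Col8a1 varied between 8.97 and 10.12, while Col8a2 stayed at 2.21 to 2.23. The same held for Col1a2 and Col1a1. Levels of different probe sets cannot be set against each other, and the values are given only to show which chains were within the range of measurement.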
